A study of Danio rerio with 2 samples.

Results

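The 4 genes described here, of 25743 in the count tables, are the myogenic regulatory factors (MRFs) myod1, myog and myf5 and the somite factor tcf15. They were chosen by name and followed as counts of unique molecular identifiers (UMIs) in every cell. Of 2081 kept cells, 187 had at least 1 UMI of a member: 88 of 1608 in the heterozygous library and 99 of 473 in the homozygous library. The cells were then sorted by which of the 4 factors they carried, and their other lineage genes, including tal1, lmo2 and etv2, were read within each combination.

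The MRFs are basic helix-loop-helix transcription factors that bind E-box sequences as dimers with E proteins. Myf5 and Myod1 commit paraxial mesoderm to the skeletal muscle lineage and are expressed in presomitic and somitic progenitors, whereas Myogenin acts later and switches committed myoblasts into differentiation. Tcf15, also called Paraxis, is a helix-loop-helix factor of the somites that is needed for their epithelial form. Tal1, Lmo2 and the ETS factor Etv2 act at the start of the blood and vessel lineages in lateral plate mesoderm, and Id proteins hold E proteins away from their partners.

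Both libraries came from zebrafish embryos at the 20-somite stage that carried etv2ci32Gt; UAS:GFP, in which a gal4 gene trap inserted in the etv2 locus disrupts the gene and drives GFP. 1 library was made from pooled heterozygous embryos, which keep an intact etv2 allele, and 1 from pooled homozygous embryos, which do not. GFP-positive cells were sorted and captured on the Chromium system, so that every share below is a share of sorted cells and not of the embryo. The reporter is read from the etv2 locus itself, so the GFP gate is not independent of the genotype, and GFP protein can outlast etv2 RNA.

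With 1 library per genotype there was no replicate and no test was made. All intervals are exact 95% intervals (Newcombe's interval for a difference of shares) that cover counting error only, and they do not cover differences between embryos or captures. A cell was kept if it held 2500 UMIs or more, if the number of its genes was above 200 and no higher than 3500, and if mitochondrial counts made up no more than 5%. The median kept cell held 10036 UMIs if heterozygous and 13079 if homozygous, and the libraries shared 0 of the kept barcodes. The submitters' label calls the cells endothelial, whereas 435 of 1608 heterozygous and 5 of 473 homozygous cells had 5 or more UMIs over 8 endothelial genes. Levels are given as counts per 1000000 UMIs (CPM), and etv2 itself was at 290 CPM in heterozygous and 15.13 CPM in homozygous cells. The paper describes the insert as a gal4-pA sequence within an etv2 exon. How far transcripts of the trapped allele were counted as etv2 was not tested, so etv2 counts need not measure the activity of the locus.

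Cells with counts of the muscle factors took a larger share of the homozygous library for all 4 genes. A cell was called positive with 1 or more UMI. myf5 was seen in 19 of 1608 heterozygous cells (1.18%, 0.713 to 1.84%) and 12 of 473 homozygous cells (2.54%, 1.32 to 4.39%), which differ by 1.36 percentage points (0.0916 to 3.25). myod1 was seen in 17 cells (1.06%, 0.617 to 1.69%) and 26 cells (5.50%, 3.62 to 7.95%), a difference of 4.44 points (2.61 to 6.91). These are the factors of the committed progenitor, and the difference was clear of 0 by a wide margin for myod1 and by little for myf5, whose interval reached below 0 when the cells with endothelial, macrophage or erythroid markers were taken out of both libraries (1.51 points, -0.716 to 4.57), without the UMI limit (1.02 points, -0.00605 to 2.55) and without the deepest 5% of cells (1.27 points, -0.00052 to 3.203).

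myog, the factor of differentiation, was seen in 11 heterozygous cells (0.684%, 0.342 to 1.22%) and 24 homozygous cells (5.07%, 3.28 to 7.46%). tcf15 was the most widespread of the members, in 75 heterozygous cells (4.66%, 3.69 to 5.81%) and 82 homozygous cells (17.3%, 14 to 21.1%). The differences were 4.39 points (2.66 to 6.77) for myog and 12.7 points (9.33 to 16.5) for tcf15. The fourth MRF, myf6, which acts in the formed muscle fibre, had 0 UMIs in both libraries, where 3 counts would be 0.177 CPM and 0.478 CPM.

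**Figure D1:**
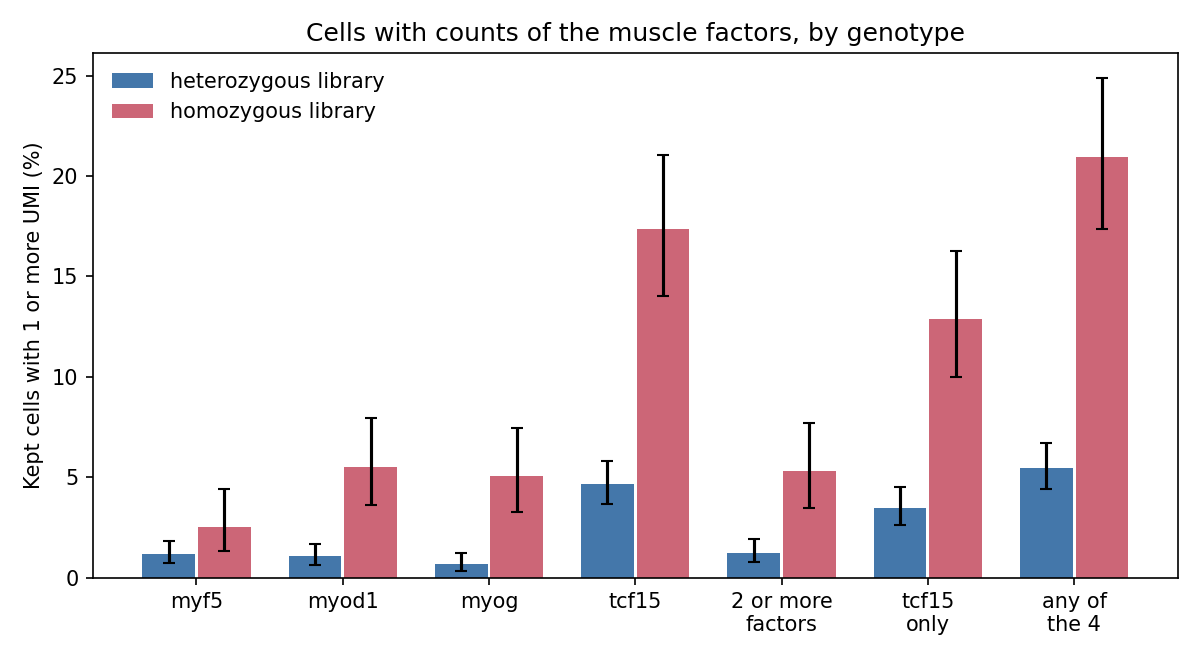
Share of kept cells, in percent, with 1 or more UMI of each factor or combination, in the heterozygous (1608 cells) and the homozygous library (473 cells). Bars are single libraries and whiskers are exact 95% binomial intervals of counting error; the homozygous bar is the higher one in all 7 pairs, from 2.54% against 1.18% for myf5 to 20.9% against 5.47% for any of the 4.

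The homozygous cells were the deeper ones, and a UMI is easier to see in a deep cell. When each cell was thinned to 2500 UMIs, the expected shares in the heterozygous and homozygous library were 0.637% and 1.38% for myf5, 0.740% and 3.61% for myod1, 0.420% and 2.86% for myog, and 2.34% and 10.8% for tcf15. The order of the libraries was thus kept for each factor at equal depth. Shares within a library depend on what else was sorted, and the homozygous library held few endothelial cells. Outside the erythroid, macrophage and endothelial marker sets, any factor was seen in 66 of 677 heterozygous cells (9.75%) and 88 of 284 homozygous cells (31.0%).

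Free RNA in the droplets also places UMIs in cells that do not make them. Erythroid cells, which should lack muscle factors, had a median of 14984 (heterozygous) and 18858 UMIs (homozygous). Of 288 heterozygous erythroid cells, 1 each carried myod1, myog and myf5 and 3 carried tcf15. Of 157 homozygous erythroid cells, 4 carried myog (2.55%), 2 carried tcf15 (1.27%) and none carried myod1 or myf5. The shares over all cells were higher than these for every factor. For myog they were 5.07% against 2.55% (up to 6.39%) in homozygous and 0.684% against 0.347% (up to 1.92%) in heterozygous cells, so that by detection alone myog lay within the interval of the erythroid cells. The heterozygous shares of myod1 (1.06%) and myf5 (1.18%) also lay below the upper limit of 1.92% in heterozygous erythroid cells, whereas tcf15 in both libraries and homozygous myod1 and myf5 lay above theirs, the last by little (2.54% against 2.32%). From the profile of empty droplets, scaled to the hemoglobin found outside the erythroid cells, 7.63 heterozygous and 8.35 homozygous cells would be expected to show a myog UMI from free RNA alone, beside 11 and 24 observed. A lone myog UMI, the state of 6 of the 11 and 10 of the 24 cells, is therefore not distinguished from background by itself. Cells with such a UMI are kept in the combinations below, and the results that rest on them are also given without them.

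The summed level of each factor, over all cells of a library, differed by genotype in the same direction. It was highest in ratio for myog, with 61 UMIs (3.61 CPM, 2.76 to 4.63) in the heterozygous and 365 UMIs (58.1 CPM, 52.3 to 64.4) in the homozygous library, a ratio of 16.1 (12.3 to 21.5). tcf15 rested on 320 and 528 UMIs (18.9 and 84.1 CPM) and had a ratio of 4.45 (3.86 to 5.12). myod1 rested on 135 and 189 UMIs (7.98 and 30.1 CPM) and had a ratio of 3.77 (3.01 to 4.74). myf5 had the smallest ratio, 1.79 (1.25 to 2.52), from 86 and 57 UMIs (5.08 and 9.08 CPM).

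These sums came from few cells. The cell with the most myog held 32.8% of all heterozygous myog UMIs and 15.9% of the homozygous ones, and the 5 highest cells held 90.2% and 67.4%. Without the highest cell of each library the myog ratio was 20.2 (14.6 to 28.8). The tcf15 counts were spread more evenly, with 28.8% and 26.5% in the 5 highest cells. With the marker-set cells taken out of both libraries the ratio was 11.5 for myog, 3.12 for tcf15, 2.72 for myod1 and 1.29 (0.903 to 1.83) for myf5. The last interval spans 1, so that the level of myf5 in the remaining cells was not distinguishable between the libraries at this depth.

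Of the 15 combinations that 4 factors allow, the same 11 were seen in each library. The 4 that were not seen were myf5 with myod1, myf5 with myog, myf5 with both, and myf5 with myog and tcf15. In consequence every cell with both myf5 and myog, 3 heterozygous and 4 homozygous, also carried myod1 and tcf15. Every myf5 cell that had any second factor had tcf15, 14 of 14 in heterozygous and 11 of 11 in homozygous cells.

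The largest group by number carried tcf15 as its only factor, with 56 heterozygous (3.48%) and 61 homozygous cells (12.9%), a difference of 9.41 points (6.51 to 12.8). Cells with any MRF, with or without tcf15, numbered 32 (1.99%, 1.37 to 2.80%) and 38 (8.03%, 5.75 to 10.9%). These 70 MRF cells split into 45 with 2 or more of the 4 factors, 20 heterozygous (1.24%) and 25 homozygous (5.29%), and 25 in which a single MRF was the only factor, 12 heterozygous and 13 homozygous.

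The cells on the 2 sides of this split differed in their other markers. None of the 45 cells with 2 or more factors fell in the erythroid, macrophage or endothelial marker set, against 13 of the 25 cells with a lone MRF. These were 7 of 12 heterozygous and 6 of 13 homozygous cells. Over all kept cells, 677 of 1608 heterozygous and 284 of 473 homozygous cells lay outside the 3 sets. The lone-MRF cells were thus near the share of all cells. In 22 of those 25 the lone MRF was a single UMI. The other 3 were heterozygous cells with 9 myog, 5 myf5 and 3 myog UMIs, and the cell with 5 myf5 UMIs also carried 35 UMIs of cardiomyocyte markers. Free RNA alone would give a myod1 UMI in 2.29 heterozygous and 5.16 homozygous cells. For myog it would give 7.63 and 8.35 cells, and for myf5 2.29 and 1.297. Lone-MRF cells numbered 4 and 5 for myod1, 3 and 7 for myog and 5 and 1 for myf5. These numbers exceeded the expected ones for heterozygous myod1 and myf5 only. Whether cells with a single lone UMI made the factor was not tested. Of 7 skeletal muscle markers (actc1b, tnni2b.1, acta1b, mylpfa, tnnt3a, desma and rbm24a), at least 1 was seen in 16 of 20 heterozygous and 22 of 25 homozygous cells with 2 or more factors. In cells with no factor at least 1 was seen in 358 of 1520 (23.6%) and 140 of 374 (37.4%). rbm24a is also among the authors' top cardiomyocyte markers. The summed level of the 7 markers was 924 CPM in the cells with 2 or more factors against 39.1 CPM in cells with no factor in the heterozygous library. In the homozygous library it was 1670 against 93.3 CPM. In the cells with a lone MRF it was 224 CPM in the heterozygous and 1698 CPM in the homozygous library, where 1 cell held 378 of the 382 counts and the other 12 cells were at 18.4 CPM. acta1b and tnnt3a, markers of the formed sarcomere, were at 0 in the heterozygous cells with 2 or more factors. The 4 cardiomyocyte markers (myl7, cmlc1, tnnt2a and tnni1b) summed to 0 UMIs in the heterozygous and 2 in the homozygous cells with 2 or more factors, the 4 neural markers to 0 and 2, and the 4 epidermal markers to 1 and 3.

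Counts of the members within the 45 cells are given by the lowest, median and highest cell. tcf15 ran from 0 through 8 to 20 UMIs in the 20 heterozygous cells and from 0 through 5 to 37 in the 25 homozygous cells. myod1 ran from 0 through 4.5 to 31 UMIs and from 0 through 6 to 24 UMIs. The myod1 counts of the libraries overlapped over most of their range, whereas 4 homozygous cells, with 24 to 37 tcf15 UMIs, lay above the highest heterozygous cell in raw count. myog ran from 0 through 0 to 20 UMIs in the heterozygous and from 0 through 2 to 58 UMIs in the homozygous cells, and 7 homozygous cells held more than the highest heterozygous cell. myf5 ran from 0 through 1 to 28 UMIs and from 0 through 0 to 16 UMIs. These counts are not scaled to depth, whose median was 7947 UMIs in the heterozygous and 14372 in the homozygous cells. Scaled to depth and summed, tcf15 was at 843 CPM in the heterozygous and 713 CPM in the homozygous cells, and myod1 at 756 and 561 CPM. By the same measure myog was at 277 and 1091 CPM and myf5 at 444 and 171 CPM.

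myf5 and myog seldom stood high in the same cell. In the 11 heterozygous and 7 homozygous cells with myf5 and no myog, myf5 summed to 67 UMIs (671 CPM) and 32 UMIs (346 CPM). In the 5 heterozygous cells with myog and no myf5, myog was at 1, 1, 1, 18 and 20 UMIs, so that 3 of the 5 were placed there by a single UMI. In the 13 such homozygous cells it ran from 1 through a median of 22 to 58 UMIs and summed to 351 (1944 CPM). Where both were present, myog stayed at 1, 1 and 5 UMIs in the 3 heterozygous and between 1 and 3 UMIs in the 4 homozygous cells, which gives 247 and 136 CPM, and 2 of the cells in each library had a single myog UMI. tcf15 was higher beside myf5 than beside myog without myf5, at 951 against 425 CPM in heterozygous and 1005 against 299 CPM in homozygous cells. The ratio of the myog to the myf5 cells for tcf15 was 0.447 (0.246 to 0.764) and 0.298 (0.209 to 0.421). myod1 was seen on both sides, with ratios of 1.17 (0.718 to 1.88) and 1.85 (1.21 to 2.92). With the cells of 1 myog UMI left out, which leaves 2 heterozygous and 12 homozygous cells with myog and no myf5, the ratio was 0.0540 (0.00135 to 0.308) and 0.314 (0.219 to 0.446) for tcf15. That of myod1 then lay on opposite sides of 1, at 0.336 (0.0888 to 0.906) and 2.03 (1.32 to 3.1995), the first from 4 UMIs in 2 cells.

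**Figure D2:**
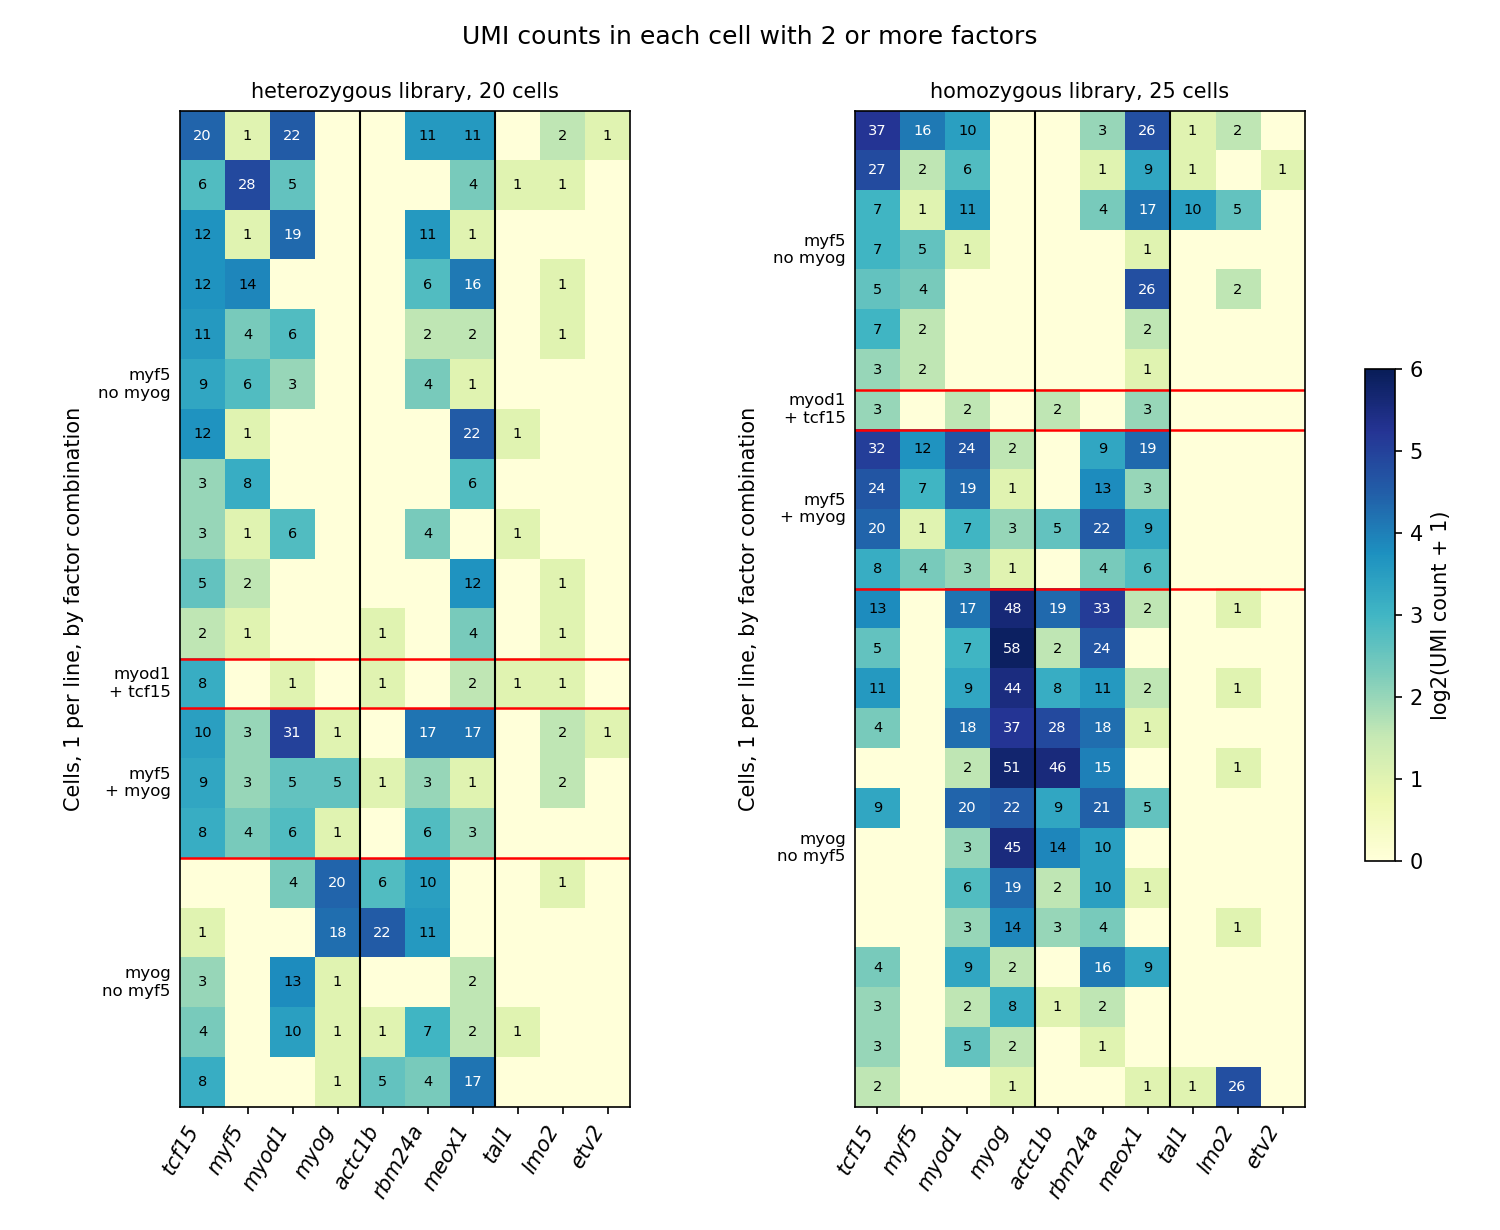
UMI counts of the 4 factors, of the muscle genes actc1b and rbm24a, of the somite gene meox1, and of tal1, lmo2 and etv2 in each of the 20 heterozygous and 25 homozygous cells with 2 or more factors; each line is 1 cell, printed numbers are counts, blanks are 0 and colour is log2(count + 1). The cells with 8 or more myog counts, up to 58, have no myf5, carry actc1b and rbm24a and have at most 1 count of tal1, lmo2 or etv2, and the lowest homozygous cell has 26 lmo2 counts.

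By number, the cells with myf5 and no myog made up 55.0% of the 20 heterozygous cells (11) and 28.0% of the 25 homozygous ones (7), and those with myog and no myf5 were 5 of 20 and 13 of 25 (25.0% and 52.0%). The difference for the latter was 27.0 points, with an interval from -1.65 to 49.7 that includes 0, so that a shift from myf5 to myog between the genotypes could not be told from counting error with this number of cells. Without the cells of 1 myog UMI they were 2 of 15 and 12 of 22, a difference of 41.2 points (9.62 to 62.1), so that this call depends on how a single UMI is treated. As a share of all kept cells, cells with myog and no myf5 were 0.311% and 2.75%, a difference of 2.44 points (1.23 to 4.34), and cells with myf5 and no myog were 0.684% and 1.48%, a difference of 0.796 points (-0.136 to 2.37).

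The cells with 2 or more factors carried little tal1, lmo2 and etv2. In the heterozygous library tal1 was at 28.9 CPM (9.37 to 67.4) in the 20 cells, against 1035 CPM in cells with no factor. lmo2 was at 75.0 CPM (40.0 to 128) against 2219 CPM, and etv2 at 11.5 CPM (1.40 to 41.7) against 292 CPM. In the homozygous library tal1 was at 39.6 CPM (21.1 to 67.7) against 361 CPM, lmo2 at 119 CPM (84.5 to 162) against 656 CPM, and etv2, 1 UMI in all, at 3.05 CPM (0.0771 to 17.0) against 15.2 CPM. All 3 genes were thus lower in the muscle factor cells of each library, although for etv2 in the homozygous library the intervals overlap. Free RNA at its estimated share would give 59.3 CPM of tal1, 99.1 CPM of lmo2 and 15.8 CPM of etv2 in a heterozygous cell, and 13.97 CPM, 31.8 CPM and 1.55 CPM in a homozygous one. The heterozygous levels were below these values for each gene. The homozygous levels were above them, with etv2 resting on 1 UMI. The share was estimated over all cells outside the erythroid set and not for these cells alone, where it may be lower. Whether the cells with 2 or more factors expressed the 3 genes above free RNA is therefore not decided by these values.

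The number of cells with a UMI of any of the 3 genes was no higher than free RNA at the library-wide share would give. A UMI of tal1, lmo2 or etv2 was present in 13 of 20 heterozygous cells (65.0%, 40.8 to 84.6%) and 9 of 25 homozygous cells (36.0%, 18.0 to 57.5%). Free RNA at that share would give 14.8 and 11.1 cells. A lower share in these cells would give fewer, so the comparison does not decide whether they made the RNA. lmo2 was the most frequent, in 10 and 8 cells, then tal1, in 5 and 4, and etv2, in 2 and 1. Thinned to 2500 UMIs, lmo2 would be seen in 18.6% and 11.9% of these cells and in 66.9% and 45.2% of the cells with no factor. The heterozygous cells held at most 3 UMIs of the 3 genes together and 20 in all. No cell with 2 or more factors held all 3 genes, with upper limits of 16.8% for the heterozygous and 13.7% for the homozygous cells. Of the cells with no factor, 596 of 1520 heterozygous (39.2%) and 16 of 374 homozygous ones (4.28%) held all 3. The homozygous share lies below the upper limit, so on this count the 25 homozygous cells are not set apart. The median depth was 7947 UMIs in the 20 and 14372 in the 25 cells, against 9802.5 and 12686 in the cells with no factor.

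Individual homozygous cells stood apart from this pattern. A cell with 1 myog and 2 tcf15 UMIs held 26 lmo2 UMIs and 1 of tal1. A cell with 11 myod1, 7 tcf15 and 1 myf5 UMIs held 10 tal1 and 5 lmo2 UMIs. These cells account for 42 of the 53 UMIs of the 3 genes in the homozygous cells with 2 or more factors. Whether such a droplet held 1 cell or several was not tested, since no doublet caller was run. By contrast, the 12 heterozygous cells with a lone MRF held 441 UMIs of the 3 genes, with at least 1 in 12 of 12, and the 13 homozygous ones held 268, with at least 1 in 9 of 13.

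**Figure D3:**
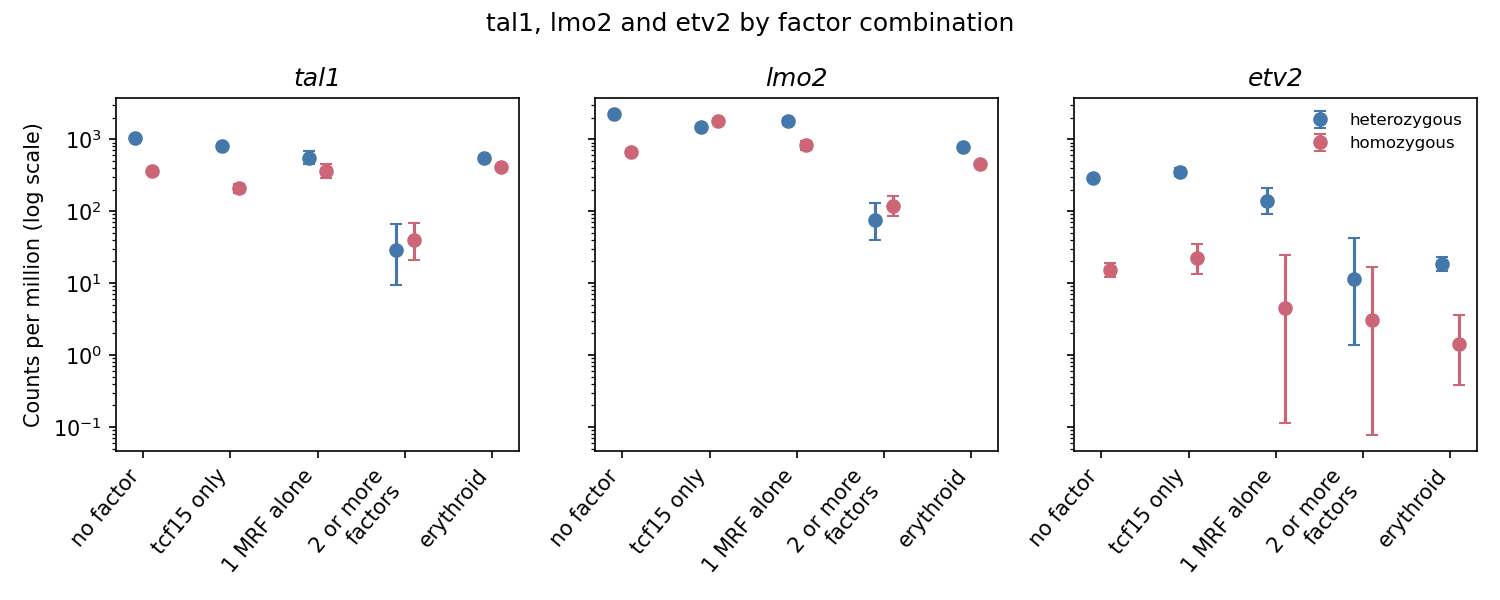
Level of tal1, lmo2 and etv2 in CPM, on a log axis, in cells with no factor, with tcf15 only, with a lone MRF, with 2 or more factors, and in erythroid cells of each library. Points are sums over the cells of 1 library and whiskers are exact 95% Poisson intervals; in the cells with 2 or more factors tal1 was at 28.9 and 39.6 CPM and lmo2 at 75.0 and 119 CPM, below the cells with no factor.

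Across the wider lineage lists, the MRF cells were high in muscle, somite and tailbud genes. Each gene with at least 20 counts in the MRF cells and the cells with no factor together was compared between them within a library, with the 4 members left out, and a ratio of 2 or more or of 0.5 or less was counted as past the fold limit. Of all 10762 genes so compared in the heterozygous library, 9.32% were at least 2-fold higher in MRF cells and 30.5% at least 2-fold lower, with a median log2 ratio of -0.28. Of 7917 in the homozygous library, the shares were 6.80% and 23.6% and the median was -0.23. The sets hold 32 and 38 cells, of which 12 and 13 carried a lone MRF, and counting error can carry a low gene past the fold limit. A gene that is seen almost only in MRF cells passes the limit of 20 counts through them, so these counts describe the genes that passed and not the whole lists. Some genes are in several lists, among them twist1a (somite and lateral plate), tbx16 (somite and tailbud) and hes6 (tailbud and muscle cofactors).

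Of 66 listed genes of muscle contraction, fusion and sarcomere assembly in the files, 23 were compared in the heterozygous library, with 18 higher, 2 lower and a median log2 ratio of 3.48. In the homozygous library 29 were compared, with 26 higher, none lower and a median of 4.18. 1 homozygous cell, with a lone myod1 UMI, held 210 of the 351 actc1b and 90 of the 248 tnni2b.1 counts, and without it 22 genes were compared, with 17 higher, 1 lower and a median of 3.22. actc1b, the skeletal and cardiac alpha-actin, was at 137 against 1.58 CPM in the heterozygous library (86.5-fold, 52.3 to 146) and at 634 against 4.27 CPM in homozygous cells (149-fold, 95.8 to 243), or 258 CPM and 60.6-fold (38.1 to 101) without that cell. rbm24a, an RNA-binding splicing regulator of muscle, was 23.1-fold and 6.87-fold higher. tnni2b.1, a fast troponin I, was 7.72-fold and 78.8-fold higher, or 50.9-fold without that cell. hsp90aa1.1, the chaperone that folds myosin in zebrafish muscle, was 27.8-fold and 38.2-fold higher, and efemp2b, a fibulin of the matrix, was 25.3-fold and 18.6-fold higher.

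Of 28 genes of the somite and paraxial mesoderm, 11 of 17 compared were higher and 1 lower in the heterozygous library (median 2.5), and 12 of 14 were higher and none lower in the homozygous library (median 2.15). meox1, a homeobox factor of the somite, was 5.66-fold and 15.2-fold higher. The presomitic factor msgn1 was 87.9-fold and 26.7-fold higher, and the segmentation clock gene her7 was 212-fold and 22.5-fold higher. These high values came from few cells: msgn1 was seen in 5 MRF cells of each library and her7 in 3 and 2. Of 14 tailbud genes, 10 of 12 were higher in the heterozygous (median 1.70) and 10 of 11 in the homozygous library (median 1.62), with none lower, among them hoxb7a (3.27-fold and 3.08-fold) and cdx4 (2.70-fold and 2.77-fold), which pattern the posterior body axis.

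Among 23 genes of E proteins, Id proteins and muscle cofactors, 6 of 20 were higher and 5 lower in the heterozygous library (median 0.50), and 8 of 18 were higher and 2 lower in the homozygous library (median 0.64). mef2d, a MADS-box partner of the MRFs, was 3.28-fold and 8.40-fold higher. hes6, which promotes myogenic commitment, was 4.41-fold and 4.29-fold higher, and the cell cycle inhibitor cdkn1ca, which acts with Myod1 in zebrafish muscle, was 1.57-fold and 2.53-fold higher. id1 was at a like level, with ratios of 0.944 (0.87 to 1.02) and 1.04 (0.965 to 1.12), and id2a was lower, at 0.548 and 0.553. Of 26 FGF and Wnt pathway genes, 6 of 21 were higher and 5 lower in the heterozygous library (median 0.77) and 6 of 18 higher and 1 lower in the homozygous library (median 0.65). The FGF target etv5b was 3.93-fold and 4.34-fold higher.

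The hemangioblast and erythroid lists lay the other way, and most clearly in the cells with 2 or more factors. Over all genes, 11.1% were at least 2-fold higher and 48.7% at least 2-fold lower in these 20 heterozygous cells than in cells with no factor, and 8.73% and 32.5% in the 25 homozygous cells. All 13 hemangioblast genes compared were lower in the heterozygous cells, and 12 of 13 in the homozygous ones. All 15 erythroid genes were lower in both. So were all macrophage genes compared (10 and 3) and all epidermal ones (11 and 10). The cells with no factor held 282 heterozygous and 151 homozygous erythroid-set cells and 425 and 5 endothelial-set cells. None of the 45 cells was in a marker set, so these counts do not set them apart from other cells outside those sets. The lists were not compared with such cells alone. In the MRF cells as a whole, which include the lone-MRF cells, 11 and 7 of the 13 hemangioblast genes (median log2 ratio -1.47 and -1.0) and 5 and 14 of the 15 erythroid genes (median -0.49 and -2.06) were lower, and in the heterozygous library 2 erythroid genes were higher. Of the muscle list, 17 of 22 genes compared were higher and 2 lower in the cells with 2 or more factors of each library, and of the somite list 13 of 17 and 12 of 14 were higher.

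The genes that separated the MRF cells best from cells with no factor in both libraries were ranked by the smaller of the 2 ratios, among genes seen in at least 5 MRF cells of each. After actc1b came si:dkey-14o18.1, with 19 heterozygous counts (85.6-fold) and 28 homozygous counts against 0 in cells with no factor (at least 83.0-fold, with 3 counts taken for the 0). The fibulin efemp2a was 45.0-fold and 50.4-fold higher. mafaa, a large Maf factor, was 42.0-fold and 67.8-fold higher, and si:dkey-250i3.3 was 35.4-fold and 40.0-fold higher. The others among the first 15 were hsp90aa1.1, msgn1, ENSDARG00000036894, angptl7, efemp2b, ttn.1 (a titin gene), thbs4b (a thrombospondin), ITGB1BP2 (melusin, an integrin-binding chaperone of striated muscle), pbxip1b and znfl1.

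Within the cells with 2 or more factors, the sets with myf5 and with myog differed in these same lists. The sets were made from the counts of myf5 and myog, and the values are descriptions. From cells with myf5 and no myog, through cells with both, to cells with myog and no myf5, the summed muscle list was at 1501, 2220 and 6641 CPM in heterozygous and 951, 3077 and 6248 CPM in homozygous cells. Per cell, the muscle list ran from 209 to 3698 CPM in the heterozygous myf5 cells and from 3730 to 8634 CPM in the heterozygous myog cells, which nearly meet. The lowest of these myog cells held 1 myog UMI, and without such cells the range was 6570 to 8634 CPM. In the homozygous library the ranges were 0 to 2363 CPM and 127 to 15762 CPM, which overlap. Without the cells of 1 myog UMI the myog cells were at 7957 CPM (2 cells) and 6834 CPM (12 cells). The somite list went from 3143 to 1128 and 1408 CPM in heterozygous and from 3447 to 1188 and 354 CPM in homozygous cells. In the myf5 cells 3 genes, msgn1, her7 and tbx16, gave a large part of this sum. Without these genes the myf5 and myog cells were at 1621 (1381 to 1891) and 1408 CPM (1055 to 1842) in the heterozygous library, which overlap. In the homozygous library they were at 1923 and 343 CPM. The heterozygous overlap rests on the cells of 1 myog UMI, without which the myog cells were at 103 CPM (12.4 to 371, 2 cells). The homozygous myog cells were then at 212 CPM (12 cells). Per cell, the somite list ran from 185 to 8556 CPM and from 0 to 4664 CPM in the heterozygous, and from 1173 to 10141 CPM and from 0 to 1710 CPM in the homozygous myf5 and myog cells, and all these ranges overlap. The tailbud list went from 1671 to 564 and 398 CPM and from 2777 to 682 and 271 CPM, with per-cell ranges of 157 to 6153 CPM and 0 to 1196 CPM in the heterozygous and 236 to 7948 CPM and 0 to 816 CPM in the homozygous myf5 and myog cells. Without the cells of 1 myog UMI the tailbud list was at 154 and 297 CPM in the myog cells. The cell cycle list went from 1451 to 1128 and 611 CPM and from 1610 to 1013 and 836 CPM, with per-cell ranges that overlap throughout. Without the same cells it was at 359 and 838 CPM in the myog cells. This list also holds cell cycle inhibitors, so its sum is not a measure of cycling alone. The inhibitor cdkn1ca gave 16 of 145 counts in the heterozygous myf5 cells and 4 of 23 in the myog cells. In the homozygous library it gave 24 of 149 and 29 of 151.

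**Figure D4:**
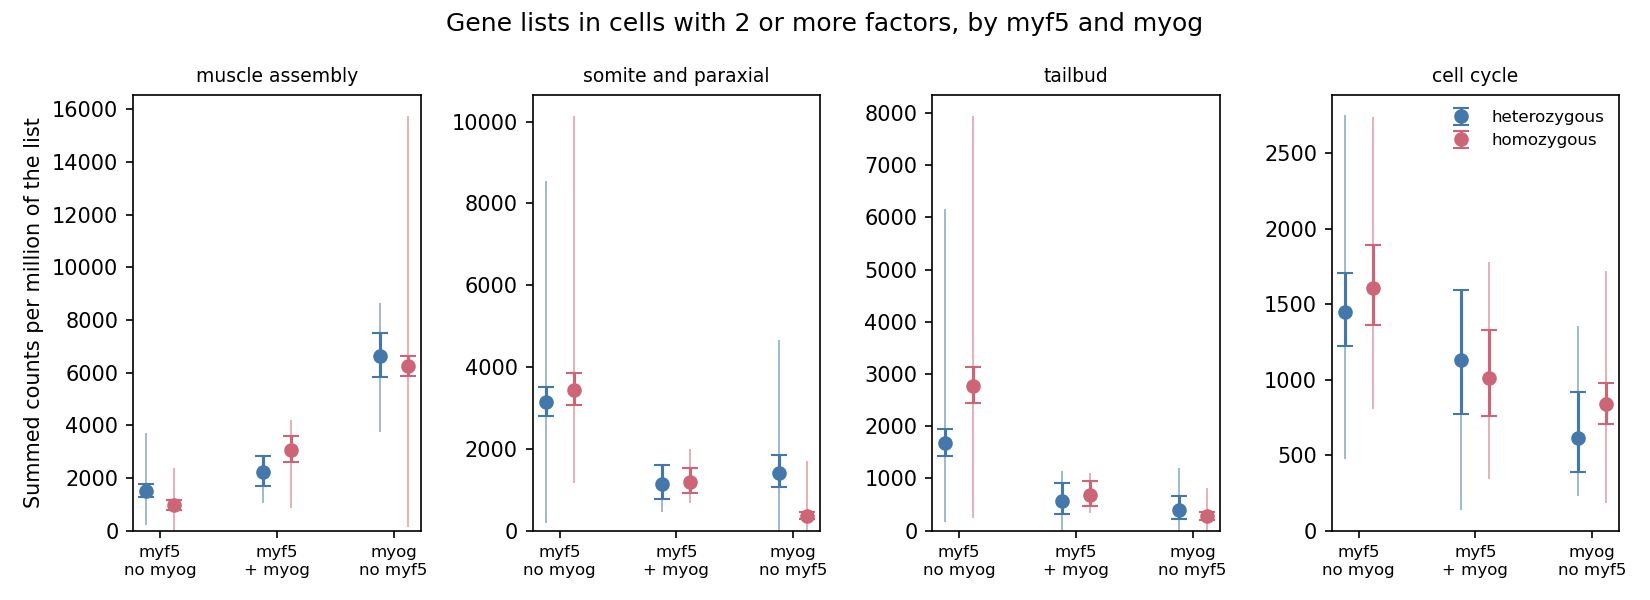
Summed CPM of 4 gene lists in cells with myf5 and no myog (11 heterozygous, 7 homozygous), with both (3 and 4) and with myog and no myf5 (5 and 13). Points are sums over the cells with exact 95% Poisson intervals, and thin lines run from the lowest to the highest cell; the muscle list is highest in the cells with myog and no myf5, at 6641 and 6248 CPM, and the tailbud list in the cells with myf5 and no myog, at 1671 and 2777 CPM.

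Among single genes, actc1b was at 34 UMIs in the 5 heterozygous myog cells and 1 UMI in the 11 myf5 cells (90.2-fold, 15.14 to 3668), and at 132 and 0 UMIs in the homozygous library (at least 22.6-fold). It was seen in 4 of 5 and 10 of 13 myog cells. tnni2b.1 was 12.6-fold (4.19 to 51.0) and 19.3-fold (7.40 to 71.9) higher in the myog cells. myl1, a fast myosin light chain, was at 13 against 0 UMIs and 106 against 0 UMIs, which is at least 11.5-fold and 18.1-fold. jam2a, a cell adhesion receptor of myoblast fusion, was at 7 against 0 and 64 against 0 UMIs (at least 6.19-fold and 10.9-fold). efemp2b did not separate the sets, with ratios of 1.43 (0.690 to 2.84) and 1.23 (0.738 to 2.13).

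Several genes were higher in the myf5 cells, and the presomitic ones among them came from few cells. hes6 was at 42 UMIs in the heterozygous myf5 cells and 3 in the myog cells (ratio 0.190, 0.0376 to 0.593), and at 57 and 1 UMIs in the homozygous library (ratio 0.00899). her7 was at 47 UMIs in 3 cells and at 43 UMIs in 2 cells of the myf5 sets, and at 0 in both myog sets (at least 5.90-fold and 28.0-fold lower). msgn1 was at 80 UMIs in 3 cells and 75 UMIs in 2 cells, against 0 and 1 UMIs. meox1 was lower in the homozygous myog cells (0.131, 0.0772 to 0.214) and not distinguishable in the heterozygous ones (0.706, 0.414 to 1.15), whose 2 cells with over 1 myog UMI held 0 meox1 UMIs. The replication clamp gene pcna was lower in the myog cells of both libraries, at 0.183 (0.0212 to 0.724) and 0.128 (0.0376 to 0.352), while cdkn1ca did not differ beyond counting error, at 0.664 (0.161 to 2.06) and 0.619 (0.348 to 1.11).

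The cells with tcf15 as their only factor had another profile. Over all genes, 10.1% were at least 2-fold higher and 16.7% at least 2-fold lower than in cells with no factor in the heterozygous library (median log2 ratio -0.03), and 12.4% and 15% in the homozygous library (median 0.01). Of 19 genes of the lateral plate and head mesenchyme, 14 of 17 compared were higher in the heterozygous library (median 2.05) and 15 of 18 in the homozygous library (median 2.24), where 1 was lower. In MRF cells 1 of 17 was higher and 8 and 6 were lower (median -0.38 and -0.54). The muscle list did not follow in the tcf15 cells, with 5 of 20 higher and 5 lower in the heterozygous (median 0.03) and 3 of 21 higher and 12 lower in the homozygous library (median -1.19). Somite genes were higher in 12 of 16 and 12 of 14, and tailbud genes in 11 of 12 and 10 of 12. The somite list shares twist1a with the lateral plate list and tbx16 with the tailbud list, so these counts are not fully separate.

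By gene, twist1a, a mesenchymal helix-loop-helix factor, was 15-fold and 5.34-fold higher in the cells with tcf15 alone than in cells with no factor, and prrx1a, a mesenchymal homeobox gene, was 9.89-fold and 6.84-fold higher. id3, a BMP target that sequesters E proteins, was 3.31-fold and 6.13-fold higher. Ranked as above, tbx16 came first (28.2-fold and 27.9-fold), a T-box factor of presomitic mesoderm, and then angptl7, foxc1b (11.4-fold and 18.4-fold), cxcl18b, six1a (8.74-fold and 8.72-fold), ENSDARG00000100757, otx2, prrx1a, ripply1 (6.83-fold and 7.48-fold), foxd2 (6.83-fold and 19.6-fold), met, cited1, fibina, six2a and plpp3. The first genes of this ranking rested on few cells. tbx16 was seen in 8 heterozygous and 7 homozygous cells with tcf15 alone and angptl7 in 7 and 8, whereas prrx1a was seen in 27 and 48. The list thus mixes factors of somites, head mesenchyme and lateral plate.

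The tcf15 cells could be divided by 2 or more UMIs of 4 lateral plate genes (twist1a, prrx1a, pitx3 and foxd2) and of 4 tailbud genes (hoxa11b, hoxb7a, cdx4 and tbx16). Of 56 heterozygous cells, 26 had the lateral plate genes only, 11 the tailbud genes only, 6 both and 13 neither. Of 61 homozygous cells, the numbers were 43, 2, 8 and 8. The lateral plate genes were seen more often where tcf15 was higher: they were present in 11 of 31 heterozygous cells with 1 tcf15 UMI, 13 of 17 with 2 to 4 and 8 of 8 with 5 or more, and in 10 of 17, 19 of 22 and 22 of 22 homozygous cells. Depth was higher along the same steps in the homozygous library, from a median of 9955 through 13270 to 14356 UMIs, and its part in this order was not tested.

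Unlike the cells with 2 or more factors, those with tcf15 alone, summed over cells, held tal1, lmo2 and etv2 in number. All 3 genes were seen in the same cell in 20 of 56 heterozygous (35.7%) and 4 of 61 homozygous cells (6.56%). In cells with no factor this share was 39.2% and 4.28%. tal1 was lower where tcf15 was higher. Of these cells, 31 heterozygous and 17 homozygous ones held 1 tcf15 UMI. Free RNA alone would give a tcf15 UMI in 10.7 and 11.2 of all kept cells. tal1 was seen in 38 of 56 heterozygous and 22 of 61 homozygous cells, lmo2 in 45 and 46, and etv2 in 27 and 12. tal1 was at 795 CPM, against 1035 CPM in cells with no factor, in the heterozygous library, and at 208 against 361 CPM in the homozygous one. Over cells with 1, 2 to 4 and 5 or more tcf15 UMIs, tal1 was at 1168, 318 and 246 CPM in the heterozygous library. In the homozygous library it was at 457, 233 and 52.5 CPM. The heterozygous cells with 1 tcf15 UMI included 3 in the erythroid, 9 in the macrophage and 6 in the endothelial set. Those with more tcf15 included 1 endothelial-set cell. A single cell with 1 tcf15 UMI held 142 of the 493 tal1 UMIs of its step. The heterozygous steps thus hold different mixtures of cells, and the part of this in the order of tal1 was not tested. Over the same steps lmo2 was at 1897, 983 and 905 CPM and at 1104, 1567 and 2385 CPM, and etv2 at 313, 197 and 846 CPM and at 5.78, 19.7 and 34.0 CPM. lmo2 was lower than in cells with no factor in the heterozygous library, at 1495 against 2219 CPM (ratio 0.674, 0.634 to 0.716), and higher in the homozygous library, at 1797 against 656 CPM (ratio 2.74, 2.57 to 2.92). The level of lmo2 in the tcf15 cells themselves differed less between the libraries than that of the cells they were set against, of which 425 of 1520 heterozygous and 5 of 374 homozygous cells were in the endothelial set. etv2 was at 353 against 292 CPM and 22.4 against 15.2 CPM, and the direction turned in both libraries when the marker-set cells were left out of the comparator (ratios 0.721, 0.632 to 0.820, and 0.659, 0.367 to 1.13). Of the 37 homozygous cells with an etv2 UMI, 12 had tcf15 alone (32.4%, 18.0 to 49.8%), against 27 of 699 heterozygous cells (3.86%, 2.56 to 5.57%). Over all kept cells, those with tcf15 alone were 12.9% of the homozygous (10.0 to 16.3%) and 3.48% of the heterozygous library (2.64 to 4.50%). The heterozygous share among etv2 cells was thus near that of all cells, and part of the contrast is the difference between the libraries. Of the 37, however, 29 had a single etv2 UMI, and 9.62 cells would be expected to show one from free RNA alone. With 2 or more etv2 UMIs the numbers were 3 of 8 homozygous (37.5%, 8.52 to 75.5%) and 21 of 496 heterozygous cells (4.23%, 2.64 to 6.40%).

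Between the genotypes, few genes differed 2-fold or more among the cells with 2 or more factors. Of 870 genes with at least 50 counts over the 45 cells, 4.25% were at least 2-fold higher in the homozygous and 2.30% at least 2-fold lower, with a median log2 ratio of 0.04. Over all 70 MRF cells, with 1485 genes, the shares were 4.04% and 2.69%. The limit of 50 counts is on the sum of both libraries, and the homozygous MRF cells held 553275 UMIs against 351425. A gene seen mostly in 1 library passes through that library, and more readily through the homozygous one. The counts below therefore describe the genes that passed and not the whole lists. Of the muscle list, 4 of 10 genes were higher and none lower in the 45 cells, and 8 of 17 were higher and none lower in the 70. The difference between these counts rests partly on the homozygous cell with 210 actc1b UMIs, and without it 4 of 12 muscle genes were higher. actc1b was 4.64-fold higher in the homozygous MRF cells (3.43 to 6.42) with that cell and 1.89-fold (1.35 to 2.68) without it.

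tnni2b.1 was 4.38-fold higher in the homozygous MRF cells, 3.31-fold (2.16 to 5.28) in the cells with 2 or more factors. jam2a was 3.22-fold and 4.98-fold higher and mef2d 2.57-fold and 2.49-fold higher on the same 2 counts. Of the members, which chose the cells, myog was at 3.80 times the heterozygous level in MRF cells, tcf15 at 1.02, myod1 at 0.889 and myf5 at 0.421. Under the same limit on summed counts, the genes with the highest ratios in MRF cells were CU695215.1 (33.7-fold, 53 against 1 counts), mss51 (7.30-fold), a muscle zinc finger gene, atf3 (6.86-fold), jdp2b (6.06-fold) and cxcl12a (5.58-fold). Those with the lowest were dusp5 (0.0828), pfn1 (0.110), rbp7b (0.244), blf (0.256) and p4hb (0.286). A single cell held 42.6% of the CU695215.1 and 43.8% of the cxcl12a counts of both libraries. For mss51, atf3 and jdp2b this share was 26.0%, 20.3% and 12.0%, and for the 5 lowest genes it ran from 19.5% to 32.7%. For dusp5 the low ratio came from outside the cells with 2 or more factors, which held 0 of its 46 heterozygous and 1 of its 6 homozygous counts. In those cells pfn1 was at 0.462 (0.209 to 1.01), which spans 1, and cxcl12a at 2.22 (1.23 to 4.31).

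Finally, the pattern of each member over all kept cells was compared with that of 9563 other genes by Pearson's r of ln(1 + counts per 10000), over 1608 heterozygous and 473 homozygous cells. The cells share a library and the counts are sparse, so that r is a description. myod1 was most like tcf15 (0.55 and 0.49), myf5 (0.46 and 0.47), uncx4.1 (0.45 and 0.47), efemp2b (0.43 and 0.67) and rbm24a (0.42 and 0.44). myog was most like actc1b (0.70 and 0.60), mss51 (0.56 and 0.61), myl1 (0.53 and 0.57), mafaa (0.53 and 0.83) and hsp90aa1.1 (0.52 and 0.73). myf5 was most like si:dkey-14o18.1 (0.53 and 0.70), tcf15 (0.54 and 0.49) and myod1, then si:dkey-250i3.3 and si:ch211-196c10.11. tcf15 was most like myf5 and myod1, then efemp2a (0.37 and 0.36), efemp2b (0.37 and 0.36) and angptl7 (0.49 and 0.34). The r of myog with myf5 was 0.12 and 0.08, and that of myog with myod1 was 0.39 and 0.71.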

How the data were processed

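Each genotype gave 1 Chromium library of GFP-sorted cells. The authors aligned reads and counted UMIs with Cell Ranger (2.0.2 in the submitters' processing notes, GRCz10) and deposited whole, unnormalized counts of all barcodes. The gene annotation is not given in the sources used here.

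Barcodes were kept with 2500 or more UMIs, a number of genes above 200 and no higher than 3500, and mt- counts of no more than 5%, and 2049 heterozygous and 588 homozygous barcodes passed without the UMI limit. Kept cells held 16913592 and 6277215 UMIs (2514 to 30674 and 2535 to 32708 per cell). Free RNA, from barcodes of 1 to 100 UMIs scaled by 14 hemoglobin genes, was estimated at 5.80% and 3.56% of the counts outside the erythroid cells. No doublets were removed, and leaving out the deepest 5% of cells was an alternative.

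Counts were summed over cells and given per 1000000. Shares have Clopper-Pearson, their differences Newcombe, levels Poisson and ratios conditional binomial intervals at 95%, computed with scipy 1.17.1 and numpy 2.4.6 in Python 3.11.15, checked on simulated data, and drawn with matplotlib 3.10.9. A 0 in a ratio was replaced by 3 counts over the set, also in the medians of the lists but not in those over all genes. Thinned shares are hypergeometric expectations.

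Marker sets were erythroid (0.5% or more hemoglobin counts, 288 and 157 cells), macrophage (5 or more UMIs over 7 genes, 431 and 114) and endothelial (5 or more over 8 genes, 435 and 5). They overlap: 138 and 85 macrophage-set cells were also erythroid, with cebpa giving 1008 of their 1335 and 659 of their 848 macrophage-gene UMIs. Named genes were the members, myf6, tal1, lmo2 and etv2, up to 6 genes of each list with the most counts in MRF cells, the first 15 genes of each ranking, the 5 highest and 5 lowest between genotypes (with no cell over 50% of the counts) and the 5 most alike for each member. Other genes named in the comparison of myf5 and myog cells, and the grouping by 2 or more factors, were chosen after their values were seen. The members and lists were chosen with earlier results of these data known. No sequences are shown, because no genome of the files' build was used here.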

Additional observations from a re-analysis of the deposited data

Results flagged for a closer look

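Some genes lay above the cells with no factor in 1 library and below them in the other, with counting intervals clear of 1 on both sides. The difference between the libraries was not tested. In the cells with tcf15 alone these were, heterozygous then homozygous, lmo2 (0.674 and 2.74), gata2a (0.693 and 1.49), fli1b (0.601 and 5.73), crip2 (0.203 and 2.15) and ramp2 (0.341 and 1.78), which are blood and vessel genes, and their comparator held 425 endothelial-set cells of 1520 heterozygous and 5 of 374 homozygous cells. Epidermal genes went the other way in the same cells, with krt4 (2.66 and 0.0599), cyt1 (1.42 and, with 0 homozygous counts, at least 5.87-fold lower), cyt1l (2.17 and, with 0 counts, at least 4.72-fold lower), tmsb1 (1.42 and 0.0122), s100a10b (1.48 and 0.133) and cfl1l (1.93 and 0.636). 1 heterozygous cell held 237 of the 365 UMIs of 4 epidermal markers there.

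In MRF cells the genes were the embryonic globins hbbe1.2 (2.13 and 0.220) and hbbe1.3 (2.24 and 0.533), the cardiac genes cmlc1 (28.4 and 0.0410), tnni1b (9.65 and 0.0767) and nkx2.5 (10.0 and 0.150), and smtnl1 (4.55 and 0.552) and tbx1 (6.43 and 0.137). The heterozygous globin counts all came from cells with a lone MRF, since those with 2 or more factors held 0 UMIs of both. The heterozygous cmlc1 and tnni1b counts came from the cell with 5 myf5 UMIs, and the nkx2.5 counts from 1 cell.

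Barcodes under the 2500-UMI limit, which the comparisons left out, also held counts of the members. In the heterozygous library they held 6 myod1, 6 myog, 2 myf5 and 8 tcf15 UMIs, and in the homozygous library 5 myog and 7 tcf15 UMIs.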

How the results depend on the processing

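Of 243 alternative values, 150 stayed within the counting interval of the reported value, or within 1.5 times of a reported count. The difference in the share of cells with any factor, 15.5 points, was 21.2 without the marker-set cells, 11.6 with 2 or more UMIs and 10.1 after thinning to 2500 UMIs, and stayed above 0 in each. Without the marker-set cells the ratios of CPM were 2.72 for myod1, 11.5 for myog and 3.12 for tcf15. The genes at least 2-fold lower in heterozygous MRF cells, 3287, numbered 5184 with 2 or more MRF UMIs, 5234 with 2 or more factors and 1745 against cells outside the marker sets; in the homozygous library 1867 became 1065 against those cells. The share of MRF cells with tal1, lmo2 or etv2, 78.1% and 47.4%, was 45.2% and 26.5% after thinning. Between genotypes, 60 higher and 40 lower genes became 37 and 20 in the cells with 2 or more factors, where fewer genes were compared. Against cells outside the marker sets 5 ratios changed side: twist1a (1.85 to 0.631) and prrx1a (1.02 to 0.351) in heterozygous MRF cells, and etv2 (1.21 to 0.721 and 1.47 to 0.659) and homozygous actc1b (1.17 to 0.710) in the cells with tcf15 alone. Without the cells of 1 myog UMI, heterozygous myod1 in myog over myf5 cells turned from 1.17 to 0.336. The grouping by 2 or more factors, and leaving out the cell with 210 actc1b UMIs, the cells of 1 myog UMI, the genes msgn1, her7 and tbx16 or the cells of 1 etv2 UMI, were chosen after seeing the data. No paired analysis was possible because each genotype has 1 library, and for the same reason no replicate could be left out. Statements on combinations rest on 45 cells, which limits all of them.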
